A study of Paralichthys olivaceus with 2 samples.

Results

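The miR-15, miR-16 and miR-457 family was followed in the Japanese flounder (Paralichthys olivaceus), in RNA of whole larvae at 29 days post hatching (dph) and at 17 dph. Its members were taken as every array probe named for zebrafish (dre-) or pufferfish (fru-, tni-) miR-15, miR-16 or miR-457, with or without a letter and without a star. The rule reads the probes' names and no measured value. Of 987 probes, 10 met the rule, 8 with the prefix dre- and 2 with fru-, for 8 mature names; no tni- probe did. They were 10 of the 263 probes for conserved miRNAs on the array.

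A single-colour array held RNA of larvae at 29 dph, which the labels call mid-metamorphosis, and another held RNA of larvae at 17 dph, called pre-metamorphosis. Each RNA came from a tube of 5 anaesthetised larvae, with no genotype or treatment that differed between the stages. With 1 array per stage, no difference between stages has a replicate check and no p-value was computed. Each probe had 3 spots, and every SD below is over those spots, so that it covers the technical spread within an array and nothing of the spread between larvae. In RNA of whole larvae, fewer cells that express a miRNA and less of it per cell cannot be told apart.

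MicroRNAs are short RNAs that guide repression of mRNAs, and they select their targets mainly through the seed, bases 2 to 8 from the 5′ end. In vertebrates miR-15 and miR-16 are made from neighbouring hairpins and share a seed, and in mammals they repress cyclins, cyclin-dependent kinases and the survival protein BCL2. In mouse heart, members of the family rise around birth, when muscle cells leave the cell cycle, and in frog embryos miR-15 and miR-16 repress a receptor of Nodal and activin signals. miR-457 is a fish miRNA with the same seed.

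The target sequences that the array file gives for the 10 probes are shown because the members are told apart by only a few bases. Capitals mark the seed.
dre-miR-15a: uAGCAGCAcagaaugguuugug
fru-miR-15a: uAGCAGCAcggaaugguuugug
dre-miR-15b: uAGCAGCAcaucaugguuugua
fru-miR-15b: uAGCAGCGcaucaugguuugua
dre-miR-15c: aAGCAGCGcgucaugguuuuc
dre-miR-16a: uAGCAGCAcguaaauauuggug
dre-miR-16b: uAGCAGCAcguaaauauuggag
dre-miR-16c: uAGCAGCAuguaaauauuggag
dre-miR-457a: aAGCAGCAcaucaauauuggca
dre-miR-457b: aAGCAGCAcauaaauacuggag

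The probes fell into 2 seed groups. The seed AGCAGCA was held by 8 of them, and AGCAGCG by fru-miR-15b and dre-miR-15c. Over the 21 positions that all targets have, 8 carried the same base in every target, namely positions 2 to 7, 13 and 18. Positions are counted from 1 at the 5′ end, and in each substitution the first-named probe's base comes first. The dre- and fru- targets of miR-15a differed by A10G, and those of miR-15b by A8G, which lies in the seed. dre-miR-16a and dre-miR-16b differed by U21A, and dre-miR-16b and dre-miR-16c by C9U. GC content ran from 36.4% in dre-miR-16c to 52.4% in dre-miR-15c.

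A further pair of probes, coded PN and listed as candidates rather than known miRNAs, targeted sequences close to that of fru-miR-15b. They are shown because their targets are nearly that sequence.
PN40: uAGCAGCGcaucaugguuug
PN186: uAGCAGCGcaucaugguuuga
PN40 was the first 20 bases of fru-miR-15b. PN186 had 21 bases and differed from fru-miR-15b by U21A. Of the 724 candidate probes, these 2 were the only ones that held either family seed anywhere in their targets.

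Spot densities are linear intensities in the scanner's units. The median of the empty spots was 38.8 at 29 dph and 45.6 at 17 dph. A probe counted as detected on an array if 50% or more of its spots exceeded the mean + 3 SD of that array's 715 empty spots. That limit was 45.6 at 29 dph and 68.7 at 17 dph, where 2 empty spots were brighter than 100. Marker miRNAs of several larval tissues were detected. Muscle miR-206, liver miR-122, gut miR-192, skin miR-203a and neuronal miR-124 were detected on both arrays, with the lowest densities for miR-124, 153.8 at 29 dph and 147.4 at 17 dph, while miR-451 of red blood cells was detected at 29 dph only, at 51.7. Precision is limited by there being 1 array a stage.

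Probes of the miR-15 and miR-16 subfamilies were detected, whereas neither miR-457 probe was. The miR-457 probes carry zebrafish sequences, and the flounder's own sequences were not among the sources used here. Whether flounder miR-457 was absent is therefore not shown. At 29 dph 7 of the 10 probes were above the limit, beside 50.2% of all conserved probes. At 17 dph 2 of the 10 were, fru-miR-15a and fru-miR-15b, beside 25.9% of all conserved probes. The 2 were among the 7, so 5 of the 7 were detected at 29 dph only, beside 48.5% of the conserved probes detected at 29 dph.

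The brightest member at 29 dph was dre-miR-16b, with spot densities of 899.8, 919.2 and 965.2 at 29 dph, against 60.6, 66.9 and 59.4 at 17 dph. The spots of the arrays did not overlap, and each 29 dph spot was far above its limit while each 17 dph spot was just under its own. It ranked 19 among 263 conserved probes at 29 dph and 74 at 17 dph. The mean of 62.3 at 17 dph was exceeded by 2 of the 715 empty spots, so that this probe was dim rather than level with most empty spots. With a limit from the median + 3 MAD of the empty spots it counted as detected at 17 dph too, as did dre-miR-15a.

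fru-miR-15a was the second brightest member at 29 dph and the brightest at 17 dph. Its spots had densities of 507.0, 563.2 and 564.3 at 29 dph, against 187.9, 192.3 and 165.9 at 17 dph. It was followed at 29 dph by fru-miR-15b, with spots at 243.9, 248.9 and 263.8, against 82.1, 74.3 and 74.8 at 17 dph. Both probes were above the limit in every spot of both arrays, and for each of them the 29 dph spots all lay above the 17 dph spots. These are densities as scanned, before any scaling between arrays.

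dre-miR-16a had spots at 190.0, 225.6 and 217.5 at 29 dph, against 41.9, 48.3 and 45.7 at 17 dph. Its 17 dph mean of 45.3 lay at the level of the empty spots, of which 390 were brighter. dre-miR-15a had spots at 97.2, 97.2 and 87.8 at 29 dph, against 49.1, 55.0 and 55.9 at 17 dph, where 10 empty spots were brighter than its mean. These 2 probes were thus clearly detected at 29 dph, and only dre-miR-15a stood above most of the empty spots at 17 dph.

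The remaining members were at or near background. dre-miR-15b, at 46.6 ± 1.3 (SD over 3 spots), and dre-miR-16c, at 44.9 ± 3.5, were close to the 29 dph limit, which 3 and 2 of their spots passed. Their means at 17 dph were 40.8 ± 3.7 and 43.3 ± 3.5, below the median of the empty spots. dre-miR-15c, dre-miR-457a and dre-miR-457b had means of 39.1, 40.9 and 41.6 at 29 dph, against 41.1, 42.9 and 43.5 at 17 dph, and were detected on neither array. The passenger strand probe dre-miR-15a* was not detected either, at 38.7 at 29 dph and 41.6 at 17 dph.

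**Figure D1:**
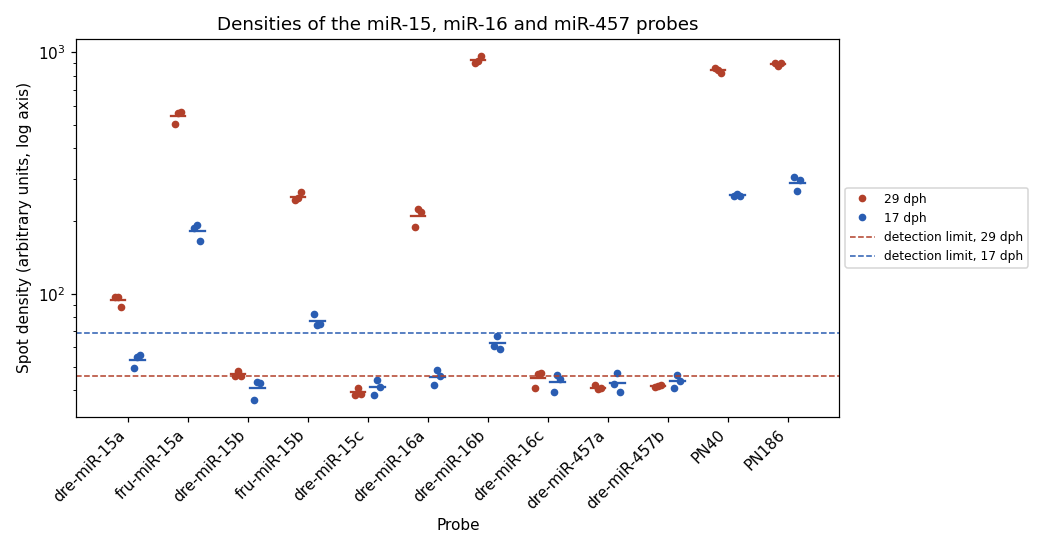
Spot densities (arbitrary units, log axis) of the 10 family probes and of candidates PN40 and PN186 at 29 dph (red) and 17 dph (blue). Points are single spots, short bars are means over 3 spots and dashed lines are the detection limits of 45.6 at 29 dph and 68.7 at 17 dph. The miR-16b, fru-miR-15a and fru-miR-15b probes stand far above the limit at 29 dph, while the miR-457 probes lie at background on both arrays.

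The order of the densities at 29 dph was dre-miR-16b, fru-miR-15a, fru-miR-15b, dre-miR-16a, dre-miR-15a and dre-miR-15b, and each of these neighbours was separated from the next by spots that did not overlap. From dre-miR-15b down, through dre-miR-16c, dre-miR-457b, dre-miR-457a and dre-miR-15c, each probe's spots overlapped those of the next. At 17 dph the order was fru-miR-15a, fru-miR-15b, dre-miR-16b, dre-miR-15a and dre-miR-16a, again without overlap between these neighbours. From dre-miR-16a down, each probe's spots overlapped those of the next. dre-miR-16b therefore stood above fru-miR-15a and fru-miR-15b at 29 dph and below both at 17 dph. Probes bind with different strength, so this is an order of densities and not of RNA amounts.

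Probes whose targets differ by 1 base gave quite different densities. In 3 pairs the difference lay at base 8, 9 or 10. For miR-15b (A8G) the density at 29 dph was 252.2 by the fru- probe and 46.6 by the dre- probe. For dre-miR-16b and dre-miR-16c (C9U) it was 928 and 44.9. For miR-15a (A10G) it was 545 by the fru- probe and 94.0 by the dre- probe, and at 17 dph it was 182 and 53.4. For dre-miR-16b and dre-miR-16a, which differ at base 21 (U21A in the order miR-16a to miR-16b), the density at 29 dph was 928 and 211.0. Both probes of every pair were detected at 29 dph, dre-miR-15b and dre-miR-16c only close to the limit. Whether the position of the differing base matters was not tested. Which probe of a pair matches the flounder's own miRNA is not known from the sources used here. How much of a probe's density comes from a related miRNA that differs by 1 base was not tested.

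To compare the stages, densities were background-corrected, put on a log2 scale and quantile-normalized over the probe spots of both arrays, so that an overall difference in brightness is removed. A detected probe, on either array, was counted as higher or lower at 29 dph if 2 conditions held. Its log2 signal at 29 dph had to differ from that at 17 dph by 1 or more, and its spots on the arrays could not overlap. All differences are 29 dph minus 17 dph. Of the 7 detected members, 2 were higher, dre-miR-16b and dre-miR-16a, beside 9.09% of the 132 conserved probes detected on at least 1 array. None was lower, beside 17.4% of those 132, and 5 were neither. dre-miR-16a and dre-miR-16b share all but 1 base of their target and are not independent readings.

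On the normalized log2 scale, dre-miR-16b reached 8.65 ± 0.046 at 29 dph, against 7.0 ± 0.13 at 17 dph, a difference of 1.65. Because the probe was below the limit at 17 dph, this was read as at least 2.89-fold higher at 29 dph, against the lowest signal of any probe detected at 17 dph. That bound holds for this normalization only. It was 1.55 when the 75th percentiles of probes seen on both arrays were made equal, and 11.6 without scaling. dre-miR-16a had signals of 7.07 ± 0.086 at 29 dph and 5.95 ± 0.16 at 17 dph, a difference of 1.12, which left no bound above 1. Both differences exceeded the spread between spots, which adds nothing to the count, since the rule asked for spots that did not overlap. The difference of dre-miR-16a rests on a 17 dph value at background.

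The miR-15 probes lay on the other side of 0 or near it. fru-miR-15a had signals of 8.01 ± 0.077 at 29 dph and 8.90 ± 0.14 at 17 dph. Its difference of -0.89 was just short of the threshold, and on this scale its 29 dph spots were all below its 17 dph spots, the reverse of the densities as scanned. fru-miR-15b had 7.24 ± 0.041 at 29 dph and 7.44 ± 0.12 at 17 dph, a difference of -0.20. By the dre- probes, which were below the limit at 17 dph, the differences were -0.13 for miR-15a and 0.18 for miR-15b. dre-miR-15b was at the limit at 29 dph and at background at 17 dph, so the sign of its difference is not read. The remaining 4 members had differences of 0.011 to 0.083.

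The median log2 difference was 0.083 over the 7 detected members and -0.26 over the 132 detected conserved probes. With the 5 members that were below the limit at 17 dph set to their bounds, and to 0 if no bound was above 1, the median of the 7 was 0. Of those 5, only dre-miR-16b had a bound above 1. The others had 0.97 (dre-miR-16a), 0.62 (dre-miR-15a), 0.45 (dre-miR-15b) and 0.44 (dre-miR-16c). Setting these to 0 fixed the median at 0, so nothing is read from it. The 2 members detected on both arrays had a median of -0.54, and the 68 conserved probes detected on both had one of -0.75.

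**Figure D2:**
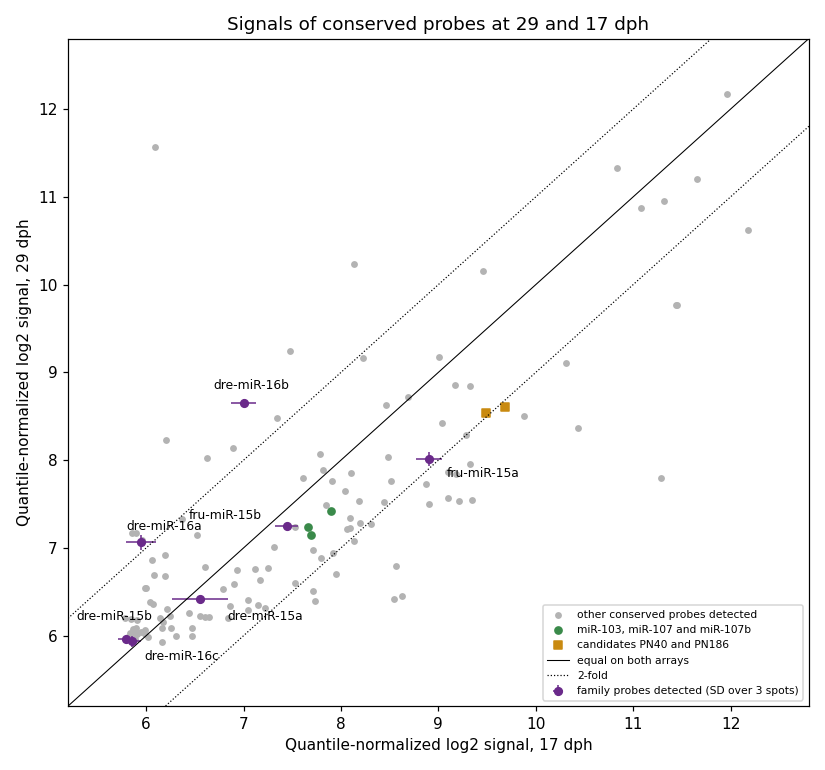
Quantile-normalized log2 signal at 29 dph (vertical axis) against 17 dph (horizontal axis) for conserved probes detected on at least 1 array (grey), the 7 detected family probes (purple, bars are SD over 3 spots), miR-103, miR-107 and miR-107b (green) and candidates PN40 and PN186 (squares). The solid line marks equal signals and the dotted lines 2-fold differences. miR-16b and miR-16a lie above the upper dotted line, and fru-miR-15a lies between the solid and the lower dotted line.

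The log2 difference of dre-miR-16b was 2.54 ± 0.21 above that of fru-miR-15a (SD over spots, combined), or 2.42 with dre-miR-16b at its bound. This contrast was chosen after the values were seen. A single factor cannot move it, and it was 2.10 with any such scaling or with none, in place of the quantile normalization. It was positive in all 10 ways of processing compared here, from 1.67 with the GC trend removed to 3.80 with plain background subtraction. With 1 array per stage it describes these 2 arrays, and its SD covers spots only. By the dre-miR-15a probe, below the limit at 17 dph, the miR-15a difference was -0.13.

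The 29 dph array was the brighter one, with a median probe spot of 139.4 against 55.4 at 17 dph, and the direction of most members against 0 depended on the scaling. In unscaled data, the median difference of the 132 conserved probes was 1.07, and that of dre-miR-16b was 3.61, a bound of at least 11.6-fold. dre-miR-16a then stood at 1.91, fru-miR-15b at 1.55 and fru-miR-15a at 1.51, and these 4 were counted as higher, beside 52.3% of the conserved probes. When the 75th percentiles of probes seen on both arrays were made equal, the median of the 132 was -1.84. dre-miR-16b was then at 0.70 and not counted, dre-miR-16a at -0.99, and 5 members were lower, beside 77.3% of the conserved probes, while 0 were higher, beside 2.27%. Of those 5, dre-miR-15a, dre-miR-15b and dre-miR-16c were detected at 29 dph only, so no fall is read for them. dre-miR-16b was positive in all 10 ways of processing and counted as higher in 9, while dre-miR-16a was positive in 8 and counted in 5.

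With the median of all probes detected on both arrays as the common level, 1 member was higher, beside 4.55% of the conserved probes, and 3 were lower, beside 65.9%. With the median of the conserved probes among them, 1 was higher, beside 11.4%, and 2 were lower, beside 34.8%. The lower members were dre-miR-15a, dre-miR-15b and dre-miR-16c under the first of these scalings and the last 2 of them under the second. All 3 were detected at 29 dph only, so no fall is read from these counts. After cyclic loess, 1 was higher, beside 3.79%, and 0 were lower, beside 18.2%. With plain background subtraction, 3 were higher, beside 25%, and 1 was lower, beside 34.8%. The 3 included dre-miR-15b, whose 17 dph spots were all set to the floor, so the sign of its difference is not read here either. With the quantiles of the conserved probes, 2 were higher, beside 12.1%, and 0 were lower, beside 9.09%. At a threshold of 1.5-fold, 2 were higher, beside 14.4%, and 1 was lower, beside 31.8%, which was fru-miR-15a. At a threshold of 4-fold, 0 were higher, beside 2.27%, and 0 were lower, beside 3.03%. Without scaling, 0 were lower, beside 0.758%. Of the 2 members detected on both arrays, 0 were higher, beside 4.41% of the 68 conserved probes detected on both, and 0 were lower, beside 33.8%. In the authors' processed table, with a pseudocount of 50 and no further scaling, 1 member was higher, beside 8.33%, and 1 was lower, beside 22%. dre-miR-16a then stood at 0.999, just short of the threshold, and dre-miR-15b at 0.081. Without the pseudocount their log2 ratios were 2.75 and 1.54, so these counts depend on it. After quantile normalization of that table, 2 were higher, beside 9.09%, and 1 was lower, beside 22.7%.

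Read against the median of the conserved probes under the same scaling, dre-miR-16b stood 1.90 above it after quantile normalization and 2.54 above it with a single factor or none. dre-miR-16a stood 1.37 above it after quantile normalization and 0.85 above it with a single factor or none. fru-miR-15a stood at -0.63 relative to it after quantile normalization but at 0.44 with a single factor or none, so that its side of the median was not settled. fru-miR-15b stood at 0.057 after quantile normalization and at 0.48 with a single factor or none. When the quantiles were taken over the conserved probes alone, without the candidates, dre-miR-16b had a difference of 2.04, dre-miR-16a one of 1.20, fru-miR-15b one of 0.17 and fru-miR-15a one of -0.30, against a median of -0.0053.

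**Figure D3:**
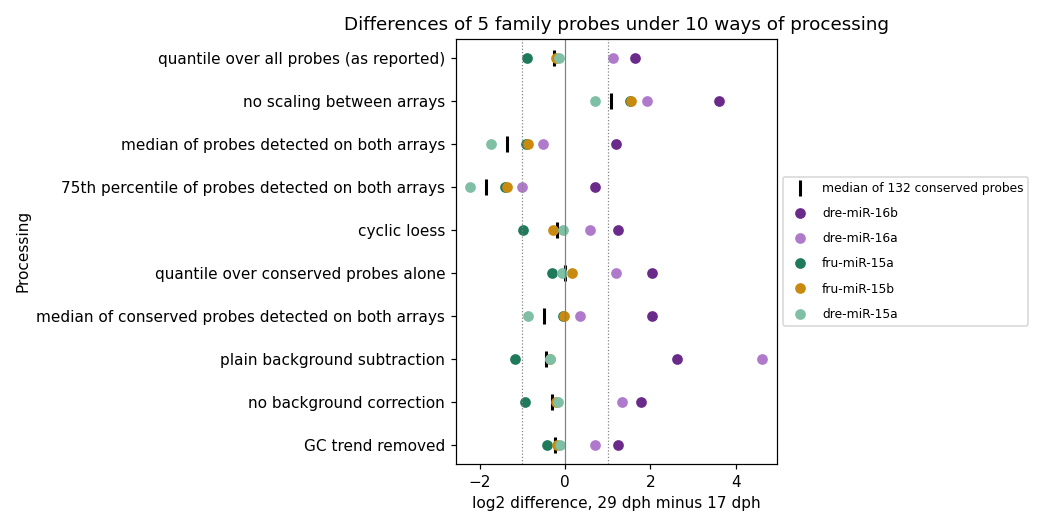
Log2 difference (29 dph minus 17 dph, horizontal axis) of 5 family probes under 10 ways of processing (rows). Coloured points are probes, black ticks are the median of the 132 detected conserved probes, and dotted lines mark differences of 1 in size. miR-16b is the only one of the 5 that is above 0 in every row, and most points shift with the black tick as the scaling changes. The value of 4.62 for miR-16a with plain background subtraction rests on 17 dph spots at or near the floor.

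The candidates PN40 and PN186 were brighter than fru-miR-15b on both arrays. PN40 had spots at 865.2, 846.0 and 821.3 at 29 dph, against 255.2, 258.6 and 253.5 at 17 dph. PN186 had spots at 902.9, 881.0 and 904.6 at 29 dph, against 303.6, 267.4 and 295.6 at 17 dph. Like fru-miR-15b, both candidates were detected on both arrays, with the 29 dph spots above the 17 dph spots. Whether these 3 probes read the same small RNA was not tested.

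After quantile normalization the 3 probes did not give the same difference, with -0.95 for PN40 and -1.08 for PN186, against -0.20 for fru-miR-15b. PN186 was thereby counted as lower. Without scaling their differences were 1.67 for PN40, 1.59 for PN186 and 1.55 for fru-miR-15b, with a largest gap of 0.12, and under every single-factor scaling the gaps between them were the same as without scaling. As scanned, the density at 29 dph was 3.30 times that at 17 dph for PN40, 3.10 times for PN186, 3.27 times for fru-miR-15b and 2.99 times for fru-miR-15a. The median of that ratio was 2.66 over the 68 conserved probes detected on both arrays, with quartiles of 2.03 and 4.73, so these 4 ratios lay between the quartiles. The ratios of dre-miR-15a and dre-miR-15b, both below the limit at 17 dph, were 1.76 and 1.14, under the lower quartile. Such ratios include each array's background, which weighs most on dim probes, and neither probe is among the 68. With the median of the empty spots subtracted, the ratio was 7.09 for dre-miR-15a, against 3.71 for fru-miR-15a, 6.77 for fru-miR-15b and 53.1 for dre-miR-16b. At 17 dph dre-miR-15a lay only 7.8 above that median, with an SD of 3.7 over spots, so its ratio is imprecise. So is that of dre-miR-16b, which lay 16.7 above it at 17 dph, with an SD of 4.1, and below the limit. dre-miR-15b was below that median at 17 dph, so no such ratio was taken for it. The scanned ratio of dre-miR-16b, dim at 17 dph, was 14.9, above the upper quartile. That of dre-miR-16a, at background at 17 dph, was 4.66, just under the upper quartile. dre-miR-16b and dre-miR-16a are not among the 68 either, which hold no probe below the limit at 17 dph.

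The list of relatives held miR-195, miR-322, miR-424, miR-497 and miR-503, which hold the family seed or one close to it in mammals, and miR-103 and miR-107, whose seed is shifted by 1 base. Among the 987 probes those list names were met by miR-103, miR-107 and miR-107b, whose targets begin with the letters AGCAGCA at base 1. No other conserved probe outside the family held those letters. miR-103 had a density of 251 ± 11.6 at 29 dph and 86.0 ± 5.5 at 17 dph. miR-107 had 229.5 ± 9.1 at 29 dph and 89.4 ± 20.6 at 17 dph. miR-107b had 303.4 ± 14.8 at 29 dph and 97.1 ± 6.7 at 17 dph. Of the 3, 0 were higher and 0 lower, with differences of -0.42, -0.54 and -0.48. Their scanned ratios of 2.92, 2.57 and 3.12 lay between the same quartiles.

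The conserved probes with the pattern most like dre-miR-16b were found as the 5 with the smallest distance to it over the normalized log2 signals of the 2 arrays. They were miR-203b at a distance of 0.38, miR-200b at 0.53, miR-200c at 0.73, miR-26b at 0.76 and miR-126 at 0.90. miR-203b and the miR-200 members are epithelial miRNAs and miR-126 is an endothelial one. Other epithelial probes had differences of 0.70 (miR-203a), 0.35 (miR-200a), 0.089 (miR-429), -0.37 (miR-141) and -0.75 (miR-205), and none of them was counted as higher. The vascular miR-221 and miR-222 had differences of -0.29 and -1.40. No tissue is therefore read from this likeness. The nearest, miR-203b, had a density of 813 ± 34.1 at 29 dph and 73.9 ± 8.9 at 17 dph. miR-200b had 607 ± 69.7 at 29 dph and 59.1 ± 2.9 at 17 dph. Likeness over 2 arrays says only that the probes were dim at 17 dph and bright at 29 dph to a similar degree.

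GC content moved with the differences of all detected conserved probes, whose linear trend was -0.095 per percentage point of GC. dre-miR-16a and dre-miR-16b had 40.9% GC, fru-miR-15b 45.5% and fru-miR-15a 50%, so that among these 4 the probes with more GC had the lower differences, and dre-miR-16a and dre-miR-16b did not differ in GC. Outside these 4, dre-miR-15a had 45.5% GC and a difference of -0.13. dre-miR-15b, dre-miR-457a and dre-miR-457b had 40.9% GC, with differences of 0.18, 0.011 and 0.023. dre-miR-16c, with the lowest GC content of the family, had a difference of 0.083, and dre-miR-15c, with the highest, one of 0.024. Of these members all but dre-miR-15a were at or near background. The part of GC content in these differences was not tested beyond the removal of its trend. With the trend removed, dre-miR-16b stood at 1.24 and was still counted as higher, dre-miR-16a stood at 0.71 and was not, and fru-miR-15a stood at -0.43. Of the conserved probes 4.55% were then higher and 11.4% lower.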

How the data were processed

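Small RNA of whole larvae was profiled on 2 single-colour arrays, 1 per stage. Per the labels' protocols, 2 to 5 ug of total RNA was size-filtered, and RNAs under 300 nt were extended with a poly(A) tail, joined to a tag and stained with Cy5. Each deposited array table gives the mean density of each of 3968 spots, a linear intensity with no sign of background subtraction or scaling. A second deposited table by the authors holds an already processed intensity for each probe. How its background and scale were set is not stated in the sources used here, nor are scanner and image software.

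Background was removed by normexp (offset 50) fitted to all spots, with limma 3.58.1 (R 4.3.3). The log2 values of the 2961 probe spots were quantile-normalized, and the mean of each probe's 3 spots was taken. Probes of different species were kept apart. Detection, differences and bounds were computed in Python 3.11.15 with pandas 2.3.3 and NumPy 2.4.6, over all probes. A bound sets the 29 dph signal against the lowest signal of a probe detected at 17 dph, or the probe's own if higher. A candidate matched a member when it shared a run of at least 16 bases.

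All family probes are described. Other probes were named by rule: matching candidates, star probes, related seeds, the 5 nearest probes to the brightest member and 6 tissue miRNAs. The members and lists were chosen with earlier results of these data known. Alternatives changed the scaling, the background step, the detection limit, the filters, the threshold and the spots used, took the authors' table (pseudocount 50), or removed the GC trend.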

Additional observations from a re-analysis of the deposited data

How the results depend on the processing

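With 1 array per stage, no alternative tests the spread between larvae. No paired analysis was possible because each stage has 1 array. Signal over background is the other limit, since 8 of the 10 family probes were below the detection limit at 17 dph. The main values were 7 probes detected, 2 higher, 0 lower, a median log2 difference of 0.083 over the detected members and a gap of 2.54 between dre-miR-16b and fru-miR-15a. With no scaling between arrays 4 were higher, the median was 1.51 and the gap 2.10. With every probe seen on both arrays brought to a common median 1 was higher and 3 lower, the median was -0.91 and the gap 2.10. With their 75th percentile in its place 0 were higher and 5 lower, the median was -1.40 and the gap 2.10. With the median of the conserved ones among them 1 was higher and 2 lower, and the gap was 2.10. Among these 4 scalings the differences move by a single factor alone, by construction, and the gap does not move. The cause of the gap's shift from the quantile-normalized value was not tested. Cyclic loess left 1 higher with a gap of 2.24, and removing the GC trend left 1 higher with a median of -0.18 and a gap of 1.67. Plain background subtraction gave 1 lower, a median of 0.92 and a gap of 3.80. That median is the value of dre-miR-16c, whose 17 dph spots were at the floor. The authors' table gave 1 higher, 1 lower and a gap of 2.78 with a pseudocount of 50 and no further scaling. After quantile normalization it gave 1 lower. Without the pseudocount its log2 ratios were 2.35 for dre-miR-16b and -1.32 for fru-miR-15a, which lie further apart than that gap. A threshold of 1.5-fold gave 1 lower, and one of 4-fold gave 0 higher. Asking for detection on both arrays left 2 probes, 0 higher and a median of -0.54, by the smaller number of probes. dre-miR-16a changed sign under these common-median and 75th percentile scalings, to -0.51 and -0.99. PN186 changed sign as well, being 1.59 in unscaled data and 0.024 with the median of conserved probes. Among probes not counted as higher or lower, signs changed too. In unscaled data PN40 was 1.67, fru-miR-15a 1.51 and fru-miR-15b 1.55, against main values of -0.95, -0.89 and -0.20. Leaving out each spot in turn gave 2 higher and 0 lower each time, with gaps of 2.46 to 2.59. A detection limit taken within separate blocks of the array's columns, added after the data were seen, left 7 detected and 2 higher. Except where given, the other alternatives in which these counts were computed kept them within 1.5 times of the main ones; where a cause is not named, it was not tested.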

Other observations

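The authors' processed table holds 1 value per probe and stage, with its scale unknown beyond being linear. In it dre-miR-16b had 294.6 at 29 dph and 57.7 at 17 dph, and dre-miR-16a had 71.0 at 29 dph and 10.5 at 17 dph. fru-miR-15a had 169.6 at 29 dph and 422.2 at 17 dph, so that in this table its value was lower at 29 dph, whereas its scanned density was higher. fru-miR-15b had 79.1 at 29 dph and 98.2 at 17 dph. PN40 had 284.2 and PN186 306.0 at 29 dph, against 610.0 and 692.6 at 17 dph. On the log2 scale of these values, the median ratio of 29 dph to 17 dph over the 132 detected conserved probes was -0.59, beside 2.35 for dre-miR-16b, 2.75 for dre-miR-16a, -0.31 for fru-miR-15b and -1.32 for fru-miR-15a. The dre-miR-457a and dre-miR-457b probes had values of 1.4 and 1.7 at 29 dph and of 4.7 and 5.3 at 17 dph.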
